A study of Mus musculus with 6 samples.

Results

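Peroxisomes are small organelles bounded by a single membrane that shorten very long and branched fatty acids and break down the hydrogen peroxide this makes. Their enzymes are made in the cytosol and imported already folded by peroxins, the Pex proteins, while a separate set of Pex proteins inserts the membrane proteins and divides the organelle. In brown fat, the tissue that burns fuel to make heat, peroxisomes are plentiful. Their shortened acyl chains pass to mitochondria for complete oxidation. A set of 30 genes of peroxisome assembly and peroxisomal lipid metabolism was chosen by name from the 54385 rows of the deposited table: 13 Pex genes and 17 genes of enzymes and membrane transporters. All 30 passed the filter on low counts, which left 14332 genes for testing. Abcd4 belongs to a family of peroxisomal transporters, but its protein is known mainly from lysosomes, where it moves cobalamin.

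The study sequenced polyadenylated RNA of brown adipose tissue. The mice were C57BL/6N, 20 weeks old and on chow, with 3 libraries of wild type (WT, genotype wt/wt) and 3 of ADCY3∆AT. The labels call the second group the Adcy3-AT knockout, and the series title speaks of a truncated adenylyl cyclase 3 induced by cold. The sources used here do not say how the allele was made, in which cells it acts, or whether each library came from its own mouse. P-values therefore reflect only how far these libraries differ, which may be partly technical. The samples are labelled as interscapular, while the design text says inguinal.

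Library totals ran from 13758492 to 19592156 estimated counts. Levels are given as CPM, counts scaled to a common library size, and a gene was called at an edgeR quasi-likelihood p under 0.05 after Benjamini-Hochberg adjustment over all tested genes. As a check of the labels, a row with no symbol, whose identifier shares its last digits with Adcy3, was at 215, 197 and 118 CPM in WT and at 1.27, 0 and 0 CPM in ADCY3∆AT, where a count of 0 allows up to 0.199 and 0.152 CPM. The sources used here do not say what this row stands for. The row of Adcy3 itself ran from 166 to 248 CPM in WT and from 167 to 240 CPM in ADCY3∆AT. Of 10 brown adipocyte markers, 1 was called (Pdk4, higher). Over all tested genes, the base for each marker list here, 2.63% were called higher and 1.67% lower. Their summed level ran from 8170 to 10542 CPM in WT and from 10145 to 11416 CPM in ADCY3∆AT. Pdk4 alone ran from 622 to 1366 CPM in WT and from 2049 to 3617 CPM in ADCY3∆AT, which raised the ADCY3∆AT sum. In log2 fold change, ADCY3∆AT minus WT, 5 of the 10 were negative and 5 positive, with Ucp1 at -0.18. WT replicate 3 had the highest summed skeletal muscle and white adipocyte markers, and ADCY3∆AT replicate 3 the lowest summed white adipocyte markers. The hepatocyte sum was also lowest in ADCY3∆AT replicate 3, while the fibroblast, macrophage and erythroid sums were lowest in ADCY3∆AT replicate 1. In WT replicate 3 the hepatocyte, fibroblast, macrophage and erythroid sums were highest, and the brown adipocyte and endothelium sums lowest. The macrophage sum was 120.8 CPM there and 120.5 CPM in ADCY3∆AT replicate 3. Skeletal muscle markers summed to 70.3, 173 and 808 CPM in WT and to 47.3, 47.9 and 49.6 CPM in ADCY3∆AT. Most of the ADCY3∆AT sums was Myl1 alone, at 43.6, 45.0 and 47.4 CPM. Myl1 held 43.6, 47.7 and 69.3 CPM in WT and was not called (log2 -0.24). Of the 13 tested among 17, 8 were called lower, and Pvalb and Cacna1s were at 0 in each ADCY3∆AT library. White adipocyte markers summed to 86.4, 49.7 and 150.1 CPM in WT replicates 1, 2 and 3 and to 80.9, 63.8 and 33.6 CPM in ADCY3∆AT replicates 1, 2 and 3; of the 6, all tested, 1 was called (Lep, lower) and none was at 0 in every library of a genotype. In bulk tissue, fewer cells of a type and less RNA per cell cannot be told apart.

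The peroxisomal genes differed little between the genotypes. Their summed level was 4476, 4511 and 4650 CPM in WT and 4695, 4482 and 4326 CPM in ADCY3∆AT, so the genotypes overlapped. Of the 30, edgeR called 0, as did DESeq2 and limma-voom, beside 4.3% of all tested genes called by edgeR (2.63% higher and 1.67% lower). At an unadjusted edgeR p under 0.05 there were 4, all lower in ADCY3∆AT (Pex19, Abcd3, Acox2 and Phyh), a share of 13.3% beside 22.6% of all tested genes in either direction and 10.2% in the lower direction. The count at this line was 2 with DESeq2 and 4 with limma-voom.

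The median log2 fold change of the 30, ADCY3∆AT minus WT, was -0.08, with 20 negative and 10 positive values. Over all tested genes the median was -0.01 and 51.1% were negative. The intervals rest on the spread of these libraries, which may be partly technical, so they may be too narrow for a difference between mice. For 25 of the 30 the 95% interval lay wholly within a 1.5-fold change in either direction, and for 28 within a 2-fold change. The same held for 53.3% and 77.8% of all tested genes, and for 66.5% and 90.6% of the tested genes whose mean level lay between those of the lowest and highest of the 30. Intervals reaching past 2-fold were those of Acox2 and Ehhadh. Libraries of the genotypes did not overlap for 9 of the 30 genes, 2 higher and 7 lower in ADCY3∆AT, a share of 30% beside 29% of all tested genes (15.1% higher and 13.9% lower).

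**Figure D1:**
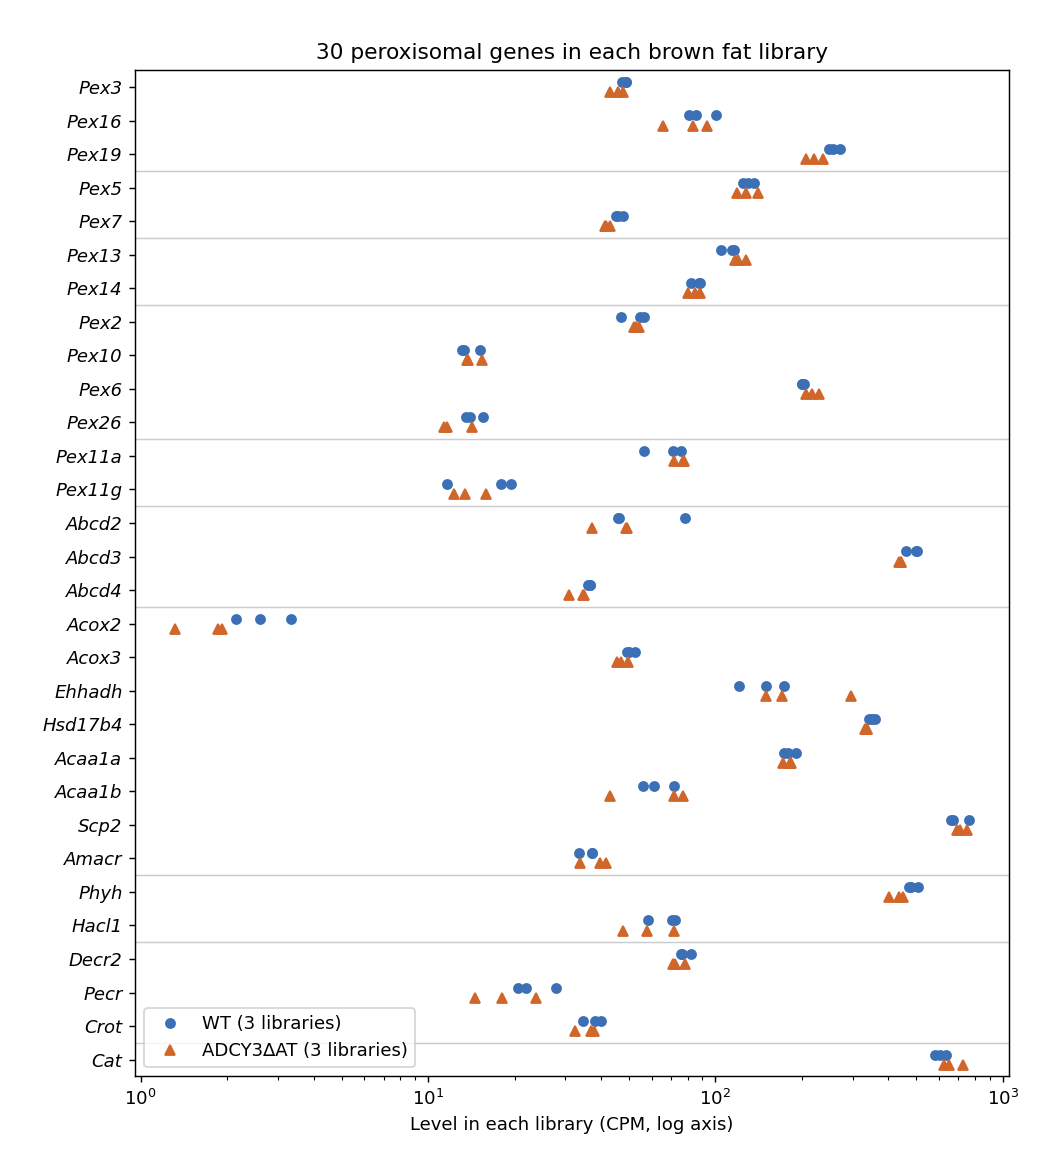
Level of each of the 30 genes in each library (CPM, log axis), with circles for the 3 WT and triangles for the 3 ADCY3∆AT libraries and grey lines between roles. The symbols of the genotypes lie close together for most genes, and Acox2 is the lowest, at 1.32 to 3.33 CPM.

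**Figure D2:**
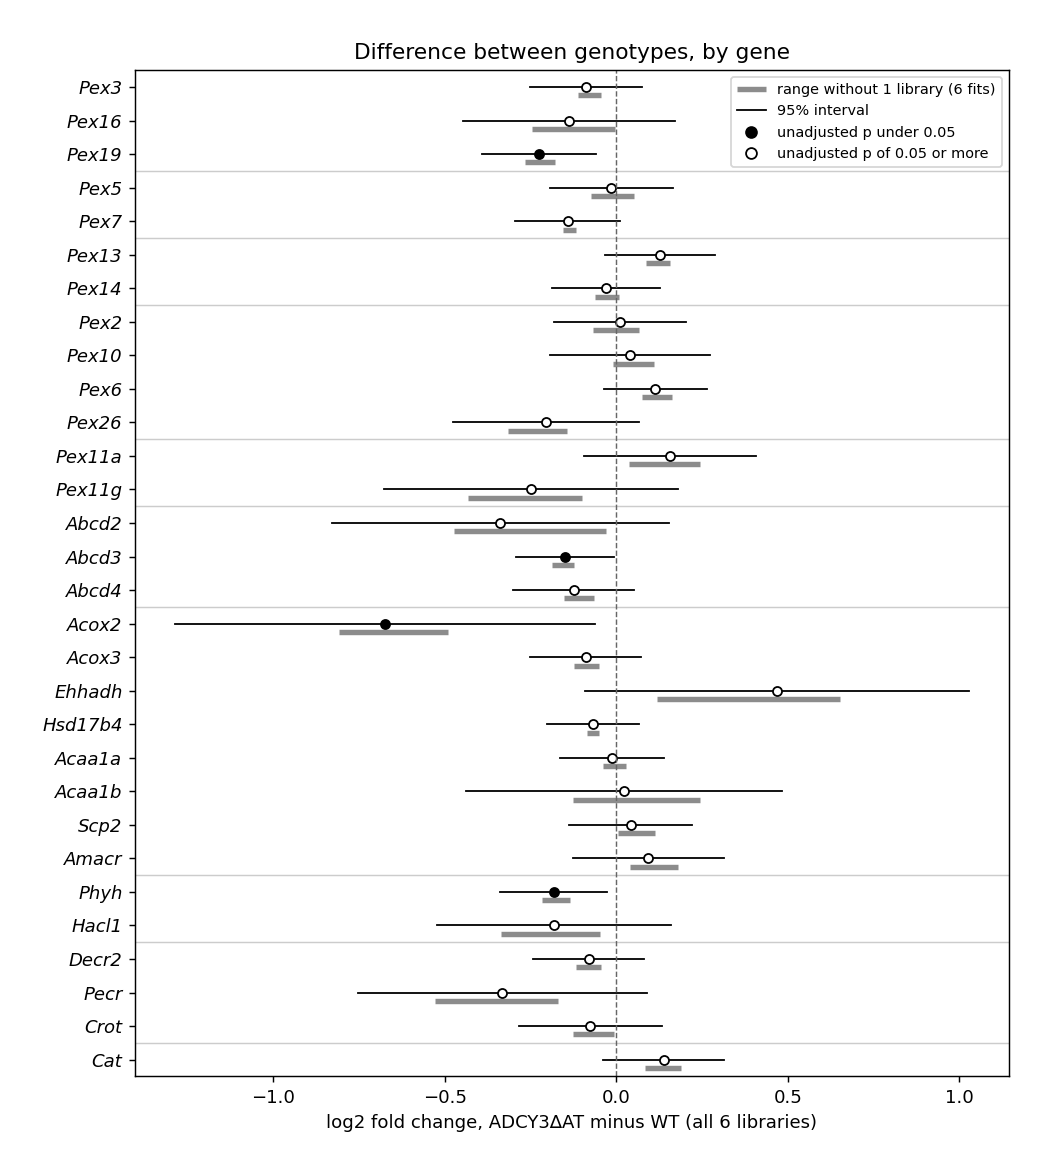
Log2 fold change of each gene, ADCY3∆AT minus WT (x axis), with the 95% interval as a thin line and, below it, the range of the 6 fits that each leave out 1 library as a thick grey line. Filled circles mark the 4 genes with an unadjusted p under 0.05, and the intervals are widest for Acox2 and Ehhadh.

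Divided by exon length, the levels of the 30 genes spanned a wide range, and enzymes stood at the top. The scale is CPM per kilobase of the union of a gene's annotated exons, which understates genes with long rarely used exons. In WT, Phyh stood highest at 257 ± 8.89 CPM per kb (SD, n = 3), followed by Cat at 232 ± 9.86, Scp2 at 200.3 ± 16.7 and Hsd17b4 at 103 ± 2.68 CPM per kb. The highest of the transporters was Abcd3 (74.1 ± 3.49 CPM per kb), and the highest Pex genes were Pex19 (67.7 ± 3.07 CPM per kb) and Pex6 (52.9 ± 0.619 CPM per kb). The lowest were Pex7 (3.83 ± 0.109), Pex26 (2.53 ± 0.185) and Acox2 (0.727 ± 0.161 CPM per kb). Of the 29 pairs of neighbours in this order, 16 overlapped in their WT libraries, among them Abcd3 and Pex19, Pex6 and Pex16, and the run from Pex13 to Hacl1, so the order within these pairs is not settled. The 5 highest genes did not overlap with one another.

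**Figure D3:**
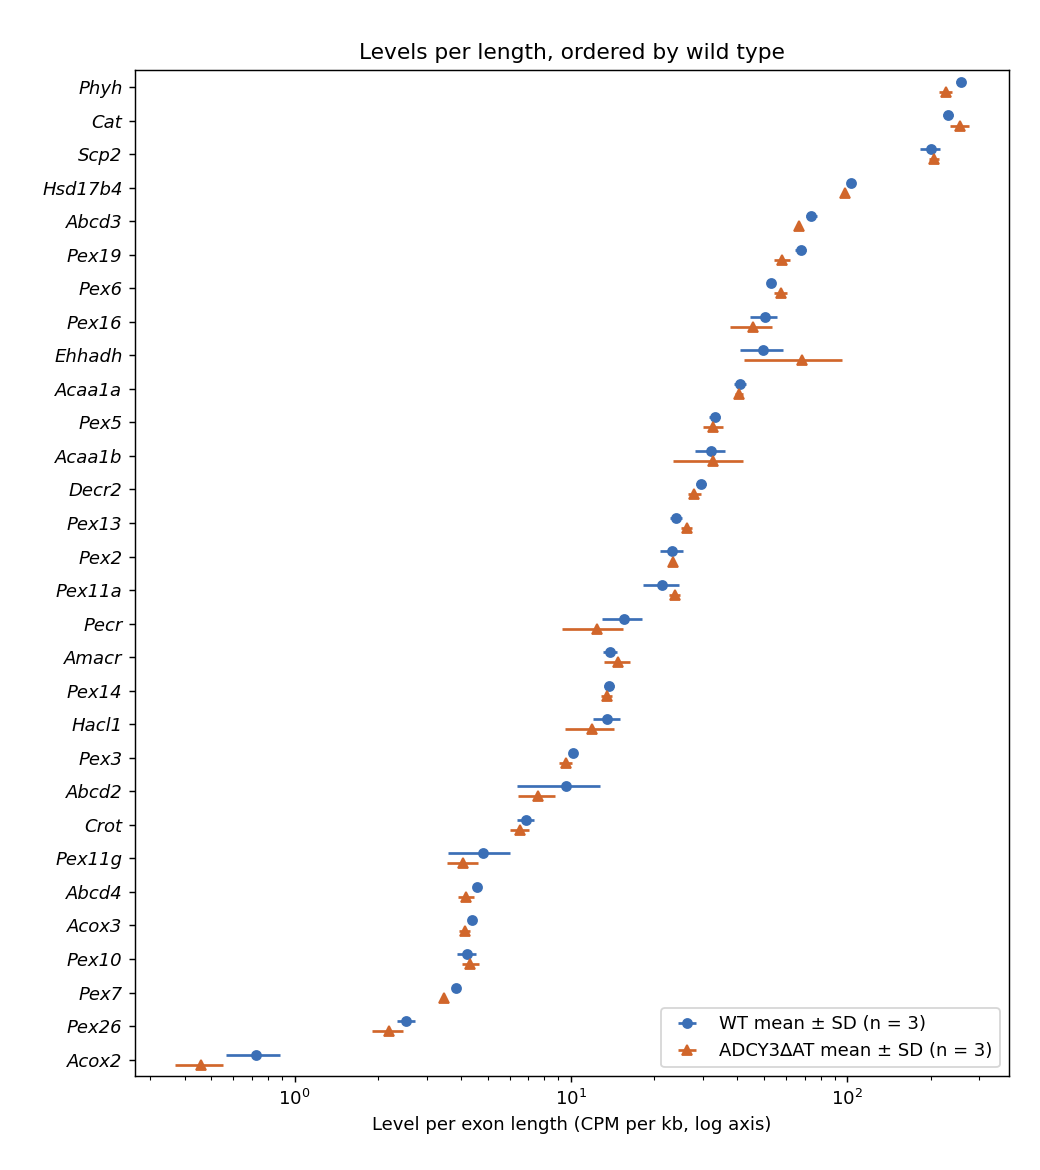
Level per exon length (CPM per kb, log axis) of the 30 genes, ordered by their WT mean, as mean ± SD of 3 libraries per genotype. Phyh, Cat and Scp2 lead with 200.3 to 257 CPM per kb in WT, and Acox2 is last at 0.727 CPM per kb.

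The peroxins that place membrane proteins had negative log2 fold changes, with no call. Pex19, the cytosolic receptor and chaperone for new peroxisomal membrane proteins, lies on chromosome 1 from 172126755 to 172136493 (GRCm38, plus strand). It held 256, 248 and 271 CPM in WT and 236, 220 and 207 CPM in ADCY3∆AT. Every ADCY3∆AT library lay below every WT library. This is a log2 fold change of -0.23 with an SE of 0.07 and a 95% interval of -0.39 to -0.06 (adjusted p = 0.118 by edgeR), and it stayed negative in each fit without 1 library, from -0.27 to -0.18. Pex3, the membrane anchor on which Pex19 unloads its cargo, was at -0.09 on the log2 scale (adjusted p = 0.507 by edgeR). Pex16, which helps bring Pex3 to the membrane, was at 81.2, 85.4 and 100.4 CPM in WT and at 93.3, 83.8 and 65.6 CPM in ADCY3∆AT. Its low value came from ADCY3∆AT replicate 3, and its log2 fold change of -0.14 was -0.01 without that library, -0.04 without WT replicate 3 and -0.25 without ADCY3∆AT replicate 1.

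The receptors and docking proteins of matrix import were at like levels in both genotypes. Pex5, the receptor for enzymes with the common signal at the carboxyl end, held 130.3, 136 and 125 CPM in WT and 119, 140.4 and 128 CPM in ADCY3∆AT. Its libraries overlapped, and the 95% interval of its log2 fold change was -0.19 to 0.17 (edgeR adjusted p = 0.934). Pex7, the receptor for the rarer signal near the amino end, held 45.2, 47.7 and 45.8 CPM in WT and 41.2, 42.9 and 41.6 CPM in ADCY3∆AT. These did not overlap, but the difference was small (log2 -0.14, SE 0.07, edgeR adjusted p = 0.251). Of the docking proteins at the membrane, Pex13 held 105, 114 and 116 CPM in WT and 128, 117 and 119.9 CPM in ADCY3∆AT, without overlap and in the opposite direction (log2 0.13, SE 0.07, edgeR adjusted p = 0.329). Pex14, its partner, had a log2 fold change of -0.03 (95% interval -0.19 to 0.13).

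The genes that recycle the import receptors went in no common direction. Pex2 and Pex10 are RING-finger subunits of the ubiquitin ligase that marks Pex5 for release, and Pex6 is an ATPase that pulls it from the membrane, where Pex26 anchors it. Pex6 held 204, 199 and 199.7 CPM in WT and 206, 230.1 and 216 CPM in ADCY3∆AT, or 0.11 higher on the log2 scale (SE 0.07, adjusted p = 0.344 by edgeR). Pex26 held 13.5, 15.5 and 13.98 CPM in WT and 11.6, 11.4 and 14.2 CPM in ADCY3∆AT (log2 -0.21, SE 0.12, edgeR adjusted p = 0.348). Pex6 lay higher in each ADCY3∆AT library than in any WT library, and was at 0.07 without ADCY3∆AT replicate 2. Pex26 overlapped through ADCY3∆AT replicate 3, without which it was at -0.32. Pex2 and Pex10 had log2 fold changes of 0.01 and 0.04, with 95% intervals of -0.18 to 0.20 and -0.19 to 0.27.

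The Pex11 genes encode proteins that bend and elongate the membrane before division. Pex11a, the form induced by peroxisome proliferators, held 71.4, 75.8 and 56.6 CPM in WT and 77.4, 77.8 and 71.6 CPM in ADCY3∆AT (log2 0.16, SE 0.11, edgeR adjusted p = 0.442). Pex11g held 17.9, 11.7 and 19.5 CPM in WT and 13.4, 15.9 and 12.3 CPM in ADCY3∆AT (log2 -0.25, SE 0.19, edgeR adjusted p = 0.477). Both overlapped between genotypes. Without WT replicate 2, its lowest library, Pex11g was at -0.43, and without WT replicate 3 at -0.10. Pex11a was at 0.24 without WT replicate 2 and at 0.04 without WT replicate 3, its lowest library.

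The Abcd transporter genes, of which Abcd2 and Abcd3 encode importers of acyl-CoA into peroxisomes, had negative log2 fold changes without a call. Abcd3, also known as PMP70, the main importer of branched and dicarboxylic acyl chains, lies on chromosome 3 from 121758774 to 121815302 (GRCm38, minus strand). It held 499, 504 and 462 CPM in WT and 442, 444 and 435 CPM in ADCY3∆AT. The libraries did not overlap, and the difference was -0.15 on the log2 scale, with an SE of 0.06 and a 95% interval of -0.29 to -0.01 (adjusted p = 0.206 by edgeR). Abcd4 also lay lower in each ADCY3∆AT library, from 30.8 to 34.9 CPM against 36.1 to 36.6 CPM in WT (log2 -0.12, edgeR adjusted p = 0.381, and -0.07 without ADCY3∆AT replicate 3). Abcd2, an importer of very long unsaturated chains that is abundant in white fat, held 45.7, 46.3 and 78.7 CPM in WT and 49.4, 48.7 and 37.3 CPM in ADCY3∆AT. WT replicate 3 was far above the other five libraries and ADCY3∆AT replicate 3 was the lowest. Its difference of -0.34 on the log2 scale (SE 0.21, adjusted p = 0.39 by edgeR) was -0.03 without WT replicate 3 and -0.21 without ADCY3∆AT replicate 3. The summed white adipocyte markers were likewise highest in WT replicate 3 (150.1 CPM) and lowest in ADCY3∆AT replicate 3 (33.6 CPM). Of the single markers, only Retn and Slc7a10 had both extremes there. Lep was lowest in ADCY3∆AT replicate 2, Trim14 in WT replicate 1 and Agt in WT replicate 2. Nnat was higher in each ADCY3∆AT library than in any WT library. The hepatocyte sum was also highest and lowest in these libraries, and the muscle sum was highest in WT replicate 3. The part of any of these in the level of Abcd2 was not tested.

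Among the enzymes of beta-oxidation, which cut 2-carbon units from acyl-CoA, the abundant ones differed little and Acox2 and Ehhadh had the widest intervals. Acox2, the oxidase for branched chains and bile acid precursors, is a liver enzyme that was scarce here. It lies on chromosome 14 from 8225511 to 8259353 (GRCm38, minus strand) and had 40, 29 and 59 counts in WT and 35, 28 and 26 in ADCY3∆AT, which is 2.61, 2.14 and 3.33 CPM against 1.93, 1.86 and 1.32 CPM. The libraries did not overlap in CPM. On the log2 scale this is -0.68 with an SE of 0.27 and a 95% interval of -1.29 to -0.06 (adjusted p = 0.184 by edgeR), the widest interval of the 30. Its fits without 1 library ran from -0.81 to -0.49. Albumin, a defining liver marker, was at 1.73 to 3.33 CPM over the 6 libraries. Cyp2e1 made up most of the sum of the 7 hepatocyte markers, which ran from 55.0 to 202 CPM in WT and from 48.6 to 143 CPM in ADCY3∆AT, and none of the 3 tested was called.

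Ehhadh, the bifunctional enzyme of the hydration and dehydrogenation steps and a classical target of PPAR alpha, had the largest positive difference. It lies on chromosome 16 from 21761287 to 21787807 (GRCm38, minus strand) and is described here because of its values. It held 121, 150.0 and 173 CPM in WT and 295, 169.9 and 149.7 CPM in ADCY3∆AT. The high level came from ADCY3∆AT replicate 1 alone, and the other two ADCY3∆AT libraries lay within the WT range. On the log2 scale the difference was 0.47, with an SE of 0.24 and a 95% interval of -0.09 to 1.03 (adjusted p = 0.301 by edgeR), and it was 0.12 without that library. With no filter on low counts, which takes in 34083 rows, edgeR called it at an adjusted p of 2.75e-06 (log2 0.49) and called Abcd2 lower at 0.0341 (log2 -0.31). That fit called 1951 of all its rows. Across the alternatives the adjusted p of Ehhadh ran from 2.75e-06 to 0.696 and that of Abcd2 from 0.0341 to 0.927.

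The other genes of the cycle differed by less. Scp2, whose locus encodes a thiolase for branched chains and a lipid carrier, held 669, 658 and 763 CPM in WT and 709, 751 and 691 CPM in ADCY3∆AT (log2 0.04, 95% interval -0.14 to 0.22). Hsd17b4, the bifunctional enzyme for very long and branched chains, ran from 342 to 361 CPM in WT and from 332 to 337 CPM in ADCY3∆AT (log2 -0.07, edgeR adjusted p = 0.53). The 95% intervals of these abundant enzymes lay within a 1.2-fold change in either direction. Acox3, the oxidase for pristanic acid, had a log2 fold change of -0.09, and Amacr, the racemase that turns branched chains into the form the oxidases accept, of 0.09.

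The thiolases of the last step cannot be counted apart with full certainty. Acaa1a and Acaa1b are near copies on chromosome 9, and 40% of the distinct 31-base words of the Acaa1b transcripts also occur in those of Acaa1a. Acaa1a ran from 174 to 191 CPM in WT and from 173 to 183 CPM in ADCY3∆AT (log2 -0.01, 95% interval -0.16 to 0.14). Acaa1b held 71.8, 55.9 and 61.2 CPM in WT and 77.1, 71.9 and 43.1 CPM in ADCY3∆AT, with ADCY3∆AT replicate 3 the lowest (log2 0.02, 95% interval -0.44 to 0.48). The sign of both turned in several fits. Scp2 and Hacl1 also share words with other genes (33.4% with the pseudogene Scp2-ps2 and 28.8% with Gm49387), so their levels are uncertain too. Strand was not stated for the counting, and reads in exons shared with an opposite-strand gene cannot be assigned with certainty. Such overlaps covered 1396 of 3397 exon bases in Pex11g (with Gm44775) and 1776 of 6272 in Pex14 (with Gm17029), and shorter stretches in 10 others of the 30.

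Alpha-oxidation removes a single carbon from phytanic acid, whose methyl branch blocks beta-oxidation. Phyh, the hydroxylase that starts it, was the most abundant of the 30 per length. It lies on chromosome 2 from 4919019 to 4938730 (GRCm38, plus strand) and held 473, 481 and 505 CPM in WT and 435, 402 and 449 CPM in ADCY3∆AT. Every ADCY3∆AT library lay below every WT library, at -0.18 on the log2 scale with an SE of 0.07 and a 95% interval of -0.34 to -0.03 (adjusted p = 0.161 by edgeR) and a range of -0.22 to -0.14 in the fits without 1 library. Hacl1, the lyase of the next step, was at 72.2, 70.4 and 58.1 CPM in WT and at 71.5, 57.7 and 47.6 CPM in ADCY3∆AT. It overlapped between genotypes (log2 -0.18, SE 0.15, edgeR adjusted p = 0.513), and the value was -0.28 without WT replicate 3, -0.34 without ADCY3∆AT replicate 1 and -0.05 without ADCY3∆AT replicate 3.

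The auxiliary enzymes had negative log2 fold changes without a call. Decr2, a reductase for unsaturated chains, held 76.2, 76.8 and 82.4 CPM in WT and 78.7, 72.6 and 71.3 CPM in ADCY3∆AT (log2 -0.08, SE 0.07, edgeR adjusted p = 0.542). Pecr, a trans-2-enoyl-CoA reductase, held 21.9, 20.6 and 27.9 CPM in WT and 14.5, 23.7 and 18.0 CPM in ADCY3∆AT (log2 -0.33, SE 0.18, edgeR adjusted p = 0.327). Both overlapped between genotypes, and the difference in Pecr depended on single libraries: it was -0.17 without ADCY3∆AT replicate 1, -0.19 without WT replicate 3 and -0.53 without ADCY3∆AT replicate 2. Crot, which joins shortened chains to carnitine for export to mitochondria, had a log2 fold change of -0.08 (95% interval -0.28 to 0.13), which ran from -0.13 to -0.01 in the fits without 1 library.

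Cat encodes catalase, which breaks down the hydrogen peroxide that the oxidases make. It lies on chromosome 2 from 103453849 to 103485160 (GRCm38, minus strand). It held 604, 632 and 581 CPM in WT and 726, 623 and 650.3 CPM in ADCY3∆AT. ADCY3∆AT replicate 1 was the highest and the genotypes overlapped, at 0.14 on the log2 scale with an SE of 0.08 and a 95% interval of -0.04 to 0.31 (adjusted p = 0.331 by edgeR), and at 0.08 without that library.

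Most of the 30 genes varied little from library to library, and the ones that varied did so in particular libraries. The coefficient of variation was under 10% in both genotypes for 19 of the 30, and the highest library exceeded the lowest by a median of 1.23-fold. WT replicate 3 was the highest library for 12 of the 30 genes and ADCY3∆AT replicate 3 was the lowest for 12 (40% each), beside 21.9% and 16.8% of all tested genes. ADCY3∆AT replicate 3 was the highest for 0 of the 30. The median log2 fold change of the 30 was -0.05 without WT replicate 3 and -0.03 without ADCY3∆AT replicate 3, but -0.11 without ADCY3∆AT replicate 1. With upper-quartile factors it was -0.12, with 22 of the 30 negative. That scaling also took the median over all tested genes from -0.01 to -0.05, with a median shift per gene of -0.04. WT replicate 3 and ADCY3∆AT replicate 3 are the libraries with the highest and lowest sums of white adipocyte and of hepatocyte markers. WT replicate 3 also had the highest muscle, fibroblast, macrophage and erythroid sums and the lowest brown adipocyte and endothelium sums. The part of any of these in the levels was not tested.

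**Figure D4:**
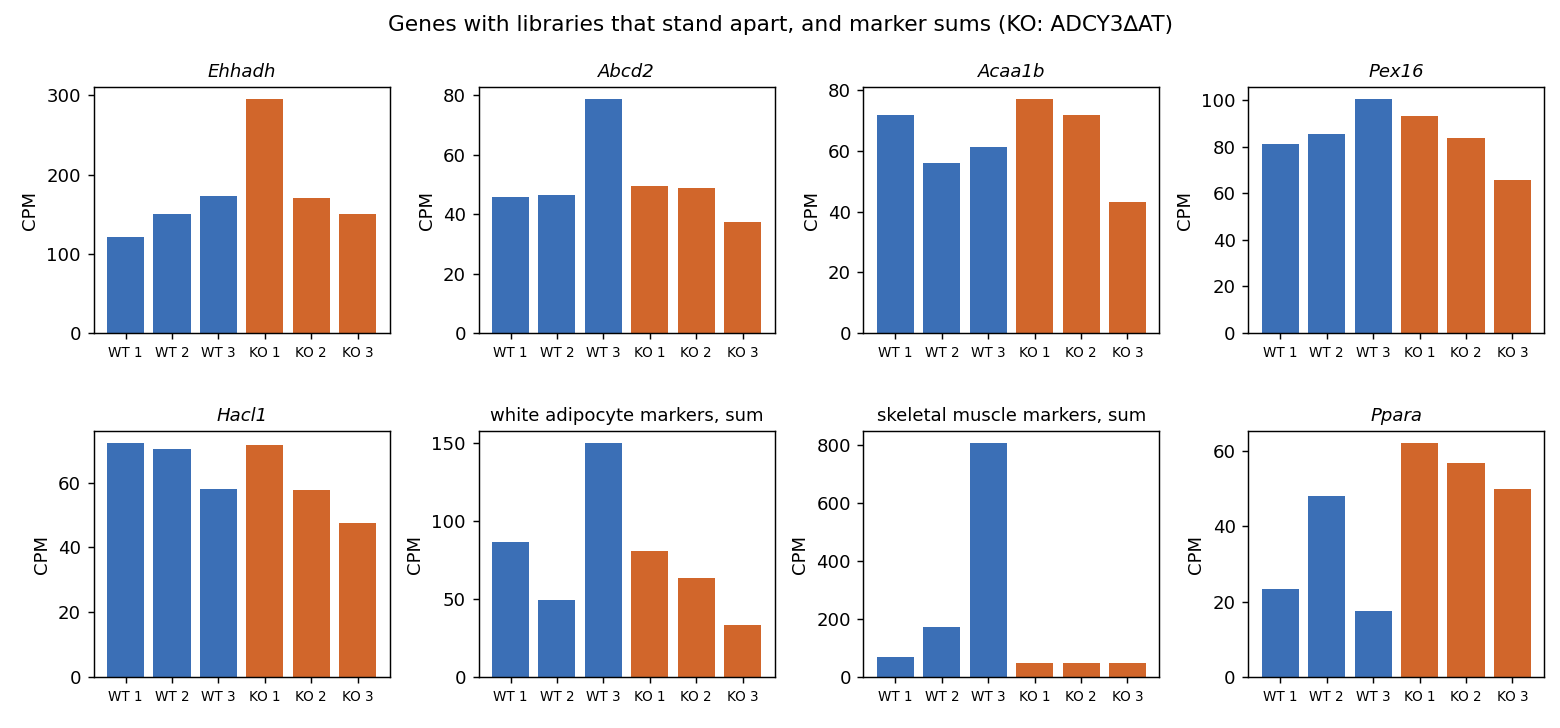
CPM in each library of 5 peroxisomal genes with a library that stands apart (picked after their values were seen), of the summed white adipocyte and skeletal muscle markers, and of Ppara, with bars from 0 and KO for ADCY3∆AT. Ehhadh is high in ADCY3∆AT replicate 1 (295 CPM), and Abcd2 (78.7 CPM) and both marker sums are highest in WT replicate 3. Abcd2, Acaa1b, Pex16 and Hacl1 are lowest in ADCY3∆AT replicate 3. Not shown are Pecr (1.92-fold from lowest to highest library) and Pex11g (1.67-fold), lowest in ADCY3∆AT replicate 1 and WT replicate 2. Acox2 (2.53-fold, lowest in ADCY3∆AT replicate 3) is not shown either. Pex16 spread 1.53-fold and Hacl1 1.52-fold.

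Among other genes of the organelle, fixed as lists by role, Eci3 and Paox were called. Of 18 tested genes of biogenesis, division and turnover (20 listed), 0 were called and 4 had an unadjusted edgeR p under 0.05, 2 in each direction, a share of 22.2% beside 22.6% of all tested genes. The smallest p belonged to Sqstm1, an autophagy adaptor (193 ± 23.3 CPM in WT and 253 ± 40.2 CPM in ADCY3∆AT, SD, n = 3, log2 0.39, edgeR adjusted p = 0.118), and to Miga2, a lipid-droplet and mitochondrial contact protein (log2 -0.19, adjusted p = 0.144). DESeq2 called Sqstm1 (adjusted p = 0.0438) and limma-voom called 0. Over all 14332 tested genes DESeq2 called 598 higher and 395 lower. Of 40 tested enzymes and membrane proteins (48 listed), 2 fell (5% beside 4.3% of all tested genes), and 38 were not called. At an unadjusted edgeR p under 0.05 there were 12, 10 of them lower (25% beside 10.2% of all tested genes) and 2 higher (5% beside 12.4%). DESeq2 called 4 of this list, all lower: Eci3, Paox, the membrane channel gene Pxmp2 (log2 -0.76, DESeq2 adjusted p = 0.00196, edgeR adjusted p = 0.0566) and the peroxiredoxin gene Prdx5 (log2 -0.24, DESeq2 adjusted p = 0.0368, edgeR adjusted p = 0.0658). Eci3, a peroxisomal enoyl-CoA isomerase, held 14.2, 11.5 and 12.8 CPM in WT and 8.42, 7.24 and 6.28 CPM in ADCY3∆AT, 1.76-fold lower (log2 -0.81, SE 0.14, edgeR adjusted p = 0.0223). Paox, a polyamine oxidase, held 34.2, 33.5 and 40.1 CPM in WT and 24.7, 27.6 and 27.4 CPM in ADCY3∆AT, 1.35-fold lower (log2 -0.44, SE 0.10, edgeR adjusted p = 0.044). Neither gene overlapped between genotypes. Among the fits without 1 library, the call of Eci3 held without WT replicate 2 or ADCY3∆AT replicate 1 only, and that of Paox in none. The call of Paox was also lost when scaling by library size alone and with the replicate number as a block.

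The nuclear receptors and coactivators known to drive peroxisomal genes were not called, though several lay higher in ADCY3∆AT. Of 20 tested (21 listed), edgeR and limma-voom called 0 and DESeq2 called 3 higher. DESeq2 called 598 of all 14332 tested genes higher. Those with an unadjusted edgeR p under 0.05 numbered 6, all higher (30% beside 22.6% of all tested genes in either direction and 12.4% in the higher one). Ppargc1a, the coactivator PGC-1 alpha, held 22.2, 21.8 and 13.6 CPM in WT and 26.2, 41.2 and 47.9 CPM in ADCY3∆AT (log2 1.01, SE 0.25, edgeR adjusted p = 0.0609). Rxrb, a partner receptor of the PPARs, held 66.1, 67.4 and 66.3 CPM in WT and 87.2, 73.0 and 89.8 CPM in ADCY3∆AT (log2 0.32, SE 0.09, edgeR adjusted p = 0.0775). Ppara, named after its values were seen, held 23.3, 48.0 and 17.5 CPM in WT and 62.0, 56.7 and 49.9 CPM in ADCY3∆AT (log2 0.93, SE 0.32, edgeR adjusted p = 0.131). None of these overlapped between genotypes. In the fit without WT replicate 2, in which its WT level was highest, edgeR called Ppara (log2 1.47, adjusted p = 0.0105), without ADCY3∆AT replicate 1 it called Ppargc1a (log2 1.23, adjusted p = 0.0165), and without ADCY3∆AT replicate 2 it called Rxrb (log2 0.41, adjusted p = 0.0486). With no filter on low counts edgeR called Ppara, Rxrb, Ppargc1a and Ppargc1b higher, beside 1204 of all 34083 rows called higher. The median log2 fold change was 0.05 over these regulators and -0.08 over the 30 genes, and the difference between the lists was not tested.

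**Figure D5:**
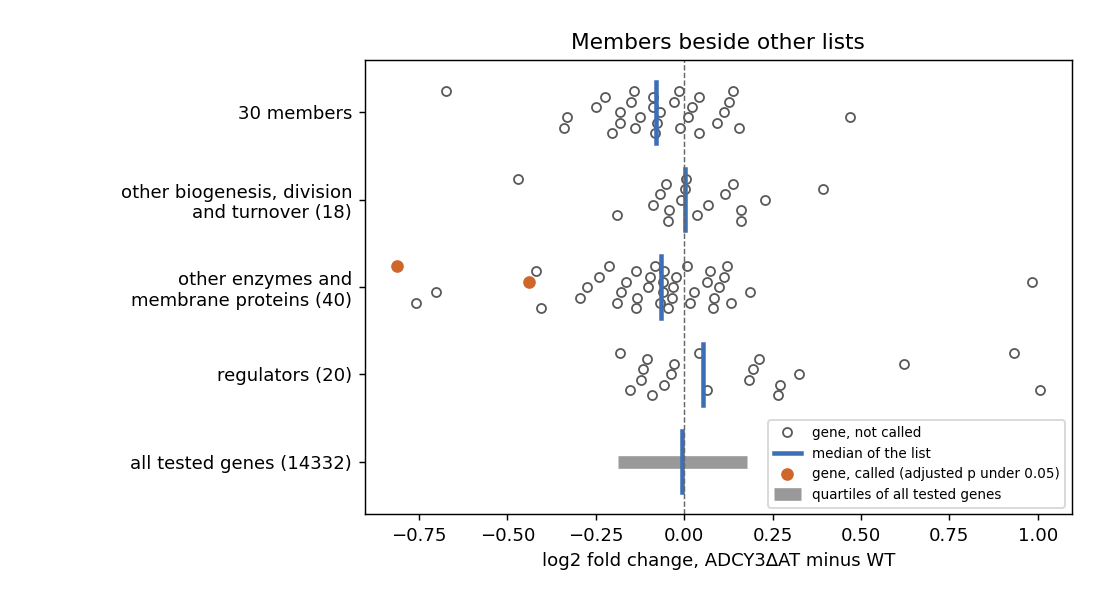
Log2 fold change, ADCY3∆AT minus WT (x axis), of each tested gene in the set of 30 and in 3 lists of other genes, with a bar at each list's median and the quartiles of all tested genes at the bottom. Filled symbols are the 2 called genes, Eci3 and Paox, both lower, and the regulators Ppargc1a and Ppara lie farthest to the right in their list.

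PPAR alpha and its partner bind a direct repeat of AGGTCA with 1 base between the copies (DR1), so the promoters were searched for it on both strands, allowing 2 mismatches in the 12 bases. RefSeq promoter windows of GRCm38.p6, from 250 bases before to 50 after each start, were matched by symbol for 24 of the 30 genes, and Abcd2, Abcd4, Amacr, Hsd17b4, Pex19 and Pex2 had no entry. A match was found in 2 of the 24 genes (8.33%), Cat and Acox2, beside 4.4% of all genes with such windows. Both matches differ from the element by 2 bases, the most allowed, and no exact match was found. They are shown because these are the members whose start region holds a match by this rule. The capitals mark the match, which begins 204 bases before the start in Cat and 9 bases after it in Acox2. Cat had a log2 fold change of 0.14 and Acox2 of -0.68, neither called. A match is a description of letters, and elements farther from the start were not searched.
Cat, the 250 bases before the start, chr2:103485154-103485403, minus strand: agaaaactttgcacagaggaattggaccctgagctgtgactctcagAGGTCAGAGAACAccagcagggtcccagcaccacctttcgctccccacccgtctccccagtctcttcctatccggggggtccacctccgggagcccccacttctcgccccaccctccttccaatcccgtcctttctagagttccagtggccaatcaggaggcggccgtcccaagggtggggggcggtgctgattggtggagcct
Acox2, the match with 8 bases on each side, chr14:8258810-8258838, minus strand: gctgtcccAGGACAGAGGTGAgtcaagag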

How the data were processed

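RNA of 6 brown fat libraries was measured, 3 per genotype. The values are estimated counts, one per gene and library, in the single table that the authors deposited (54385 rows, 6 columns, matched to samples by the number in each description), of which 38% of the values above 0 were whole within 0.0005. Per the submitters' processing notes, GRCm38, StringTie, Salmon and edgeR were used, with versions and roles not given in the sources used here, and strand handling is likewise not given. Symbols came from GENCODE M21. The members and lists were chosen with earlier results of these data known. Estimated counts were rounded, filtered with filterByExpr (minimum count 10, total 15), scaled by TMM and tested two-sided with edgeR 4.0.16 (glmQLFTest, R 4.3.3) over 14332 genes. SEs are from the F statistic. The script was tested on simulated data. The naming rule gives library values for members that were called, had an unadjusted p under 0.05, or were highest per length or most different in their role, and from other lists up to 3 called genes or else the 2 smallest p. Its protein targeting signals were not searched, because no protein table was used here. Libraries within a genotype were not duplicates of one another (chi-square per gene of 6.34 to 27.2). Limits for a count of 0 use 3 counts and cover counting error only.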

Additional observations from a re-analysis of the deposited data

How the results depend on the processing

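The count of called members stayed at 0 in 13 of 14 alternatives and was 2 with no low-count filter (Ehhadh and Abcd2). Calls over all genes numbered 616 (377 higher, 239 lower), 993 with the DESeq2 1.42.0 Wald test, 1951 with no low-count filter, 525 with limma-voom 3.58.1 and 324 with the replicate number as a block, and ran from 162 to 461 in the fits without 1 library. Upper-quartile factors gave 282 higher and 274 lower. Calls among the 78 other tested genes numbered 2, with 1 by library size alone, 8 by DESeq2 (of 75 with an adjusted p), 10 with no low-count filter, 1 with the replicate block, and 0 to 3 without 1 library. The replicate numbers showed no pairing in the values. Same-numbered libraries had correlations of -0.007, 0.007 and -0.045 in their deviations from the genotype mean, and no library correlated best with its own number. With 3 libraries per genotype, such correlations cannot exclude a pairing. The block called 0 members. Of 420 refitted member values, 401 kept sign and call, 2 became calls and 17 turned sign, all of 6 genes near 0. With upper-quartile factors Pex2 was at -0.0278 and Acaa1b at -0.0164, with limma-voom Acaa1b at -0.0227, with the replicate block Acaa1b at -0.0123, and with no low-count filter Pex5 at 0.0088 and Acaa1a at 0.0117. In the fits without 1 library these genes reached: Pex5 from -0.0754 to 0.0503, Pex14 from -0.0619 to 0.0068, Pex2 from -0.0674 to 0.0649, Pex10 from -0.0102 to 0.11, Acaa1a from -0.0397 to 0.0283, and Acaa1b from -0.13 to 0.24. Those fits have 1 library fewer. The cause of the other changes was not tested.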
